A study of Mus musculus with 20 samples.

Results

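Mouse flank tissue was compared between day 60 and day 20 after Ad-VEGF-A164, an adenovirus carrying the VEGF-A164 isoform of the growth factor VEGF-A. The arrays were chosen by the time point in their titles and source names, which gave 5 arrays of day 60 (A to E) and 5 of day 20 (A to E), 10 of the 20 arrays of the series. Another 5 arrays of day 0 control flank tissue gave the level before the vector. The 4 arrays of day 5 entered only the estimate of the spread and the average signals by which probe sets and tested genes were chosen. The remaining array, titled day 5 but sourced as day 0 control, was left out of every comparison. The series title is about stroma in gastric cancer. The comparison asks which genes of vessels, stroma and resident tissue were lower or higher on day 60 than on day 20.

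Day 20 and day 60 tissue shared the vector and the site, and differed in the time since the vector was given. The strain, sex and age of the mice, the vector dose and the part of the flank taken were not given in the sources used here, and no label names an empty vector. Whether each array is a different animal is not stated, so p-values reflect the spread of these arrays alone, which may be technical. Values are MAS5 signals, a brightness per probe set on a linear scale, scaled by the authors to the same trimmed mean in every array. Differences are log2 changes of signal + 100, which understate the change of genes with low signal, and genes were called at a limma adjusted p under 0.05. The number of arrays limits the precision.

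VEGF-A binds the receptors VEGFR2 (Kdr) and VEGFR1 (Flt1) on endothelial cells and drives sprouting, in which a leading tip cell is followed by stalk cells. New vessels recruit pericytes through endothelial PDGF-B and lay down a basement membrane of collagen IV, laminins and nidogens. An adenoviral vector does not integrate, so its product is transient, and vessels that need VEGF-A regress once it is gone while more mature ones stay. Flank tissue holds skin with hair follicles, a fat layer, a muscle sheet and, in females, mammary epithelium, so its bulk RNA mixes the RNA of all of these.

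Between day 20 and day 60, 3011 of 13594 tested genes passed the test, which is 22.1% of genes. Of these, 1489 were higher on day 60 (11% of all tested genes) and 1522 were lower (11.2%). At least 2-fold changes numbered 521 higher (3.83%) and 562 lower (4.13%), where day 20 against day 0 had 802 (5.9%) and 637 (4.69%). The median log2 change over all genes was 0.03. Against day 0, by contrast, 154 genes (1.13%) passed the test on day 60 and 4097 (30.1%) on day 20. These comparisons share arrays, so their counts are set side by side only. At an unadjusted limma p under 0.05, 4708 genes (34.6%) passed between day 20 and day 60. The same share against day 0 was not counted, so unadjusted counts against day 0 are given below without a background. The first principal component of the 10 arrays held 42.6% of the variance and had all day 60 arrays on one side of all day 20 arrays. Correlations of log2 signal ran from 0.921 to 0.974 within day 20, from 0.903 to 0.963 within day 60 and from 0.822 to 0.935 between the days.

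Measures of RNA integrity differed between arrays. Actb probe sets at the 3' and 5' ends gave a signal ratio, which grows as RNA breaks down. It was 4.48 ± 1.84 on day 20 (SD, n = 5) and 8.82 ± 4.24 on day 60 (n = 5), beside 7.10 ± 1.89 on day 0 (n = 5). Arrays A, B and D of day 60 had ratios of 14.0, 10.4 and 10.9, and C and E of 4.32 and 4.52, below day 20 E at 7.56. The same ratio of Gapdh was 7.72 and 3.62 in day 60 A and D, above the day 20 range of 1.77 to 2.71, and 2.48, 1.82 and 1.68 in B, C and E. With the ratio as a covariate, or without A, B and D, gene groups that moved by over 1.5 times are given with both counts below.

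**Figure D1:**
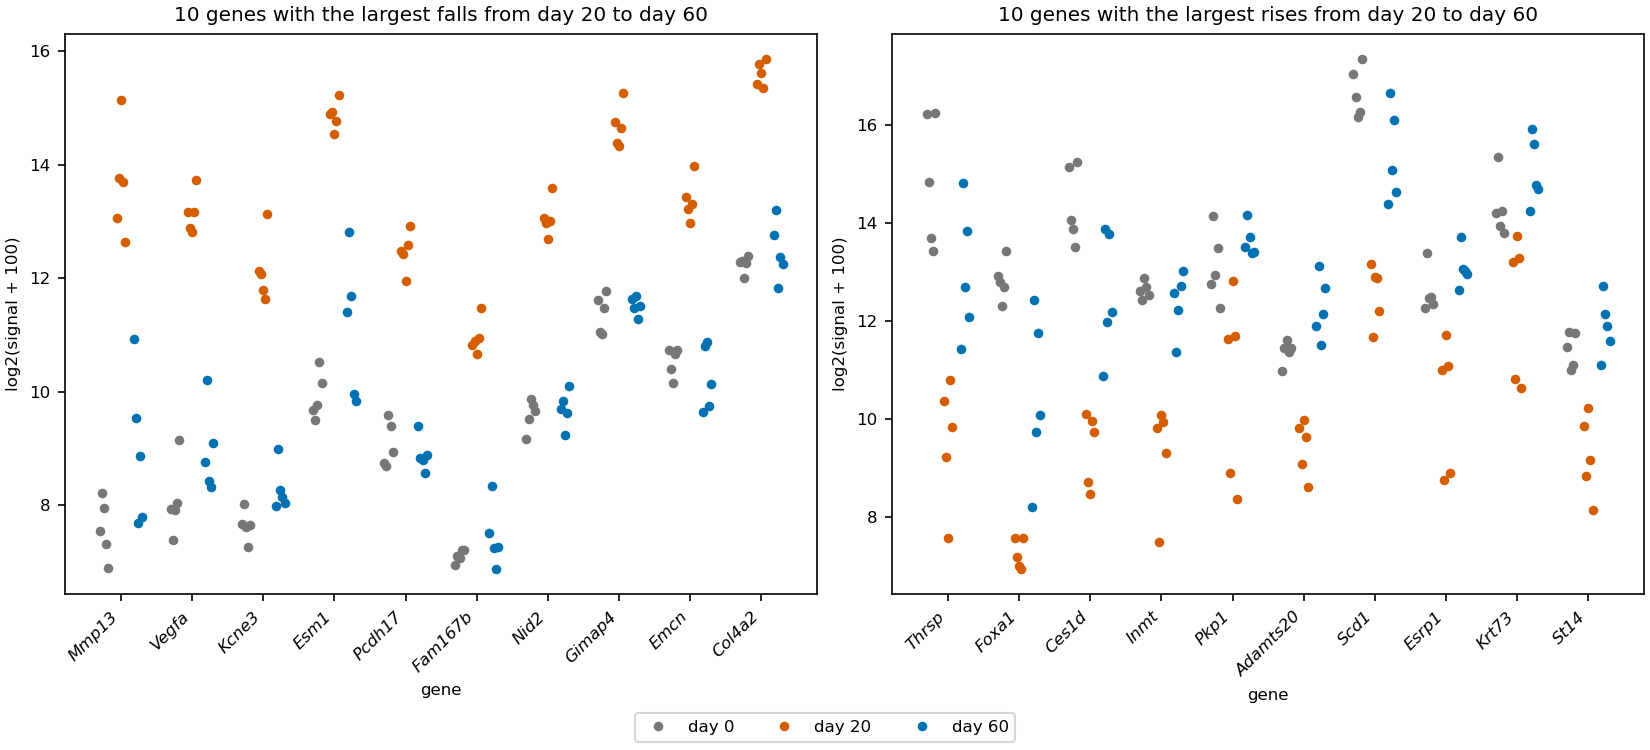
Values of the 10 genes with the largest falls (left) and the 10 with the largest rises (right) between day 20 and day 60, on a log2 axis of signal + 100, with 1 point per array and 5 arrays each of day 0, day 20 and day 60. By the choice of these genes every day 60 array lies outside the range of the day 20 arrays, and the day 0 arrays show how far the day 60 level lies from that of untreated tissue.

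The gene carried by the vector was measured first. On the Vegfa probe set with the higher mean, signals were 9141, 7451, 7128, 9046 and 13514 on day 20 arrays A to E and 332, 1076, 242, 219 and 449 on day 60. All 5 day 60 arrays lay far below the lowest day 20 array, with B the highest of them. Vegfa fell by 4.20 on the log2 scale (SE 0.35, adjusted p = 9.76e-08), and its day 60 mean of 463 ± 354 (SD, n = 5) was not called different from the day 0 mean of 196 ± 156 (adjusted p = 0.214). The other Vegfa probe set moved the opposite way. It read 1029 ± 146 on day 20 and 1750.1 ± 499 on day 60, a log2 change of 0.67 (SE 0.19, adjusted p = 0.0162 among all probe sets). Which transcript ends the probe sets read was not analysed here, so the vector's and the mouse's own Vegfa were not separated.

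Among 15 ligands and receptors of the VEGF and angiopoietin families, 10 were lower on day 60 and none was higher, against 11.2% and 11% of all genes, with a median log2 change of -1.36. Kdr, the main signalling receptor of VEGF-A, read 6771, 6330.3, 4748, 6606 and 8032 on day 20 and 2003, 1168, 1488, 1175 and 2263 on day 60. The groups did not overlap, and it fell by 1.97 on the log2 scale (SE 0.23, adjusted p = 6.57e-06). Flt1, the receptor that also acts as a decoy, read 7693, 6329, 5737, 6838 and 13852 on day 20 and 1823, 2825, 1315, 2139 and 1080.2 on day 60. It fell by 2.08 (SE 0.25, adjusted p = 6.87e-06), again without overlap. Angpt2, the angiopoietin that destabilises vessels and is made by activated endothelium, went from 3978 ± 586 to 837 ± 172 (log2 change -2.13, adjusted p = 1.04e-07). Flt4, the receptor of VEGF-C, and Vegfc itself fell by 1.48 and 1.44, and the co-receptor Nrp1 by 1.36. The log2 changes of Tek, the angiopoietin receptor, and of Angpt1, Vegfb, Vegfd and Nrp2 were -0.31, -0.01, 0.14, 0.16 and -0.02 and did not pass the test. Pgf, the ligand of Flt1 alone, was called lower (-1.16, SE 0.37, adjusted p = 0.0282), but day 60 B at 727 lay above day 20 D and E. Its call was lost without any one of day 20 A, B or C or day 60 C or E (adjusted p up to 0.0879) and in a fit of the 10 arrays alone. Angptl4, which inhibits lipoprotein lipase, fell by 1.05 and was lower than on day 0 too (-1.36, adjusted p = 0.0197).

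Endothelial genes fell as a group. Of 31 genes expressed across endothelium, 25 were lower on day 60, none was higher, and the median log2 change was -1.45, beside 0.03 over all genes. Kdr, Flt1, Tek and Tie1 are in this list and in that of VEGF and angiopoietin genes. The mean level of the list was 12.36, 12.22, 12.04, 12.22 and 12.58 log2 units on day 20 A to E and 11.38, 10.87, 10.87, 10.60 and 10.88 on day 60, so the days did not overlap, while the day 0 arrays, between 10.58 and 10.96, overlapped day 60. In bulk tissue, fewer endothelial cells and less RNA per endothelial cell cannot be told apart, and the same holds for each cell type below. Pecam1, the junction protein CD31, read 1657, 1518, 1311, 1317 and 2286 on day 20 and 689, 337, 963, 649 and 829 on day 60 (log2 change -1.15, SE 0.20, adjusted p = 0.000449). Cdh5, the endothelial cadherin, read 11397, 11132, 8209, 10058 and 12011 and then 4362, 2234, 1790.1, 2129.9 and 2500.4, a fall of 2.04 (SE 0.20, adjusted p = 8.7e-07). In both genes every day 60 array was below every day 20 array, as in 8.26% of all genes. The largest fall of the list was that of Emcn, a sialomucin of capillaries and veins, from 10934, 9415, 7889.8, 10015 and 16076 to 696, 1685, 1784, 756 and 1027 (log2 change -3.14, SE 0.24, adjusted p = 4.42e-08). Icam2, an adhesion molecule, followed at -3.02, and day 60 D held only 54.2 units of it. The endothelial transcription factors Erg, Sox18, Fli1 and Tal1 fell by 2.27, 1.8, 1.41 and 1.0. Of the 6 members not called, Vwf had a log2 change of 0.79 (adjusted p = 0.135), Tek of -0.31, Cd34 of -0.26, Lyl1 of -0.09, Nos3 of -0.51 and Cldn5 of -0.65. Against day 0, limma called no member on day 60 (4 had an unadjusted p under 0.05), and it called 27 higher on day 20, where 15.6% of all genes were higher.

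Many endothelial promoters carry sites for ETS factors such as Erg and Fli1. RefSeq promoters of the GRCm38.p6 build were available for 18 of the 31 genes, and the letters AGGAAG, searched on both strands in the 250 bases before the start, were in 12 of their 24 promoters (50%). Over all 32851 promoters the share was 29.5%. A match is a description of the sequence and not a binding site. The promoters of Emcn (plus strand, chr3:137340828-137341077) and Flt1 (minus strand, chr5:147726012-147726261) are shown because these genes fell far and hold the letters more than once, with AGGAAG or its reverse complement in capitals, 5' to 3'.
Emcn: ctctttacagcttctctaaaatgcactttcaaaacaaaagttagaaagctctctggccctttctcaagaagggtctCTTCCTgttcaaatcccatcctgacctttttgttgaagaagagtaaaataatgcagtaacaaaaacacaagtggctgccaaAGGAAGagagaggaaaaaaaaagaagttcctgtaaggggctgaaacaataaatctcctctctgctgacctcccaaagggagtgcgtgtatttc
Flt1: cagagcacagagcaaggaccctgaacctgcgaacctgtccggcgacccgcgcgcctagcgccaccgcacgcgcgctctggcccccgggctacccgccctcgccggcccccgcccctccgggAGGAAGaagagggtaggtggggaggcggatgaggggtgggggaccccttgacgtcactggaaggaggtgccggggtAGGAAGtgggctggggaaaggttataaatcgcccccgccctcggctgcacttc

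Most genes of sprouting tip cells fell. Of 22 tested, 18 were lower and none higher, with a median of -1.71. Many of these genes are also in the endothelial, VEGF and angiopoietin, Notch, venous, pericyte or basement membrane lists, so these groups are not separate. Esm1, a secreted proteoglycan made by tip cells under VEGF-A, read 30492, 31008, 23673, 27752 and 38427 on day 20 and 2601, 7092, 3206, 896 and 812 on day 60. Arrays D and E of day 60 were at 896 and 812, inside the day 0 range of 624 to 1371, whereas A, B and C were above it. Esm1 fell by 3.73 on the log2 scale (SE 0.40, adjusted p = 2.01e-06). Kcne3, a potassium channel subunit, read 4370.2, 4232, 3439, 3059 and 8827 and then 153, 410.3, 207, 184 and 163, with day 60 B again the highest of its group (log2 change -3.86, SE 0.24, adjusted p = 3.93e-09). Nid2, a nidogen of basement membranes, went from 8634 ± 2119 to 747 ± 181, and Col4a2, a collagen IV chain, from 50061 ± 7558 to 5935 ± 2252. Their log2 changes were -3.36 and -3.12, with adjusted p of 1.02e-09 and 2.36e-09. Cxcr4 and Pdgfb, a chemokine receptor and the pericyte recruiting ligand, fell by 1.95 and 1.09. The apelin receptor Aplnr fell by 2.01, while its ligand Apln had a log2 change of -0.69 that did not pass the test (adjusted p = 0.0556). Adm, Unc5b and Nrp2 were not called either (-0.35, -0.19 and -0.02), and Nrp2 alone of the list was called higher on day 60 than on day 0 (0.74).

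Outside the lists, 3 more genes were among the 10 largest falls. Pcdh17, a protocadherin, read 5584, 5431, 3852, 6012 and 7687 on day 20 and 573, 355, 343, 281 and 370.4 on day 60 (log2 change -3.58, adjusted p = 1.05e-09). Gimap4, a GTPase of lymphocytes and endothelium, read 27580.2, 21362, 20543, 25448 and 39081 and then 3058, 2759, 3192, 2383 and 2825 (log2 change -3.16, adjusted p = 1.02e-09). Fam167b fell from 1930.0 ± 479 to 86 ± 80.6 (log2 change -3.51, adjusted p = 5.94e-09). Day 60 and day 20 arrays were apart in all 3, as the choice of the largest falls requires, and none of them was called different from day 0.

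Arterial, venous and lymphatic genes were mixed. Of 18 Notch and arterial genes, 9 were lower and 1 was higher, and their median was -0.61. Notch4, the endothelial Notch receptor, read 3199.5, 5492, 3462, 3664 and 8161 on day 20 and 828, 1064, 836, 376 and 241 on day 60 and fell by 2.72 (SE 0.33, adjusted p = 9.24e-06). The tip cell ligand Dll4 fell by 1.06 and the Notch target genes Hey1, Hey2 and Heyl by 1.17, 1.16 and 0.89. Hey2 was still called higher than on day 0 (0.87). Notch1, which is also expressed in epidermis and hair follicles, was the member that rose (0.56, adjusted p = 0.00918), with 4 of 5 day 60 arrays above the highest day 20 array. That call was lost with the Actb ratio as a covariate and without day 60 A, B and D. The ligands Jag1 and Jag2 had log2 changes of 0.13 and 0.26 and were not called.

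Of 9 venous genes, 2 were lower, where 11.2% of all genes were. The 2 were Aplnr and Vcam1, a leukocyte adhesion molecule. Vcam1 read 8493, 13881, 10153, 8749 and 11706 on day 20 and 3700.2, 5005, 1833, 2114 and 2458 on day 60 (log2 change -1.85, adjusted p = 5.14e-06). The venous transcription factor Nr2f2 and the venular chemokine receptor Ackr1 had log2 changes of -0.42 and 0.56 and did not pass. The 9 lymphatic genes held 3 falls (Flt4, Itga9 and Nts, at -1.48, -1.48 and -0.82) and 1 rise, that of Reln (0.84, adjusted p = 0.019). Over all genes 11.2% fell and 11% rose. The Reln call was lost without day 20 D, day 20 E or day 60 A (adjusted p up to 0.0567). It was also lost with array weights, in the fit of the 10 arrays alone, with the Actb ratio as a covariate and without day 60 A, B and D (adjusted p up to 0.0875). Lyve1, a hyaluronan receptor of lymphatic endothelium and some macrophages, had a log2 change of 1.07 (adjusted p = 0.103), and Pdpn of 0.59. Mmrn1, a lymphatic multimerin, was still higher than on day 0 by 1.91 on the log2 scale, with a change from day 20 of -0.57 (adjusted p = 0.348). List levels of both groups overlapped between the days.

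Pericyte genes fell as a group. Of 16 tested, 13 were lower on day 60 and none was higher, and the median was -1.79. The list's level was 12.49, 12.45, 12.41, 12.44 and 12.46 log2 units on day 20 A to E and 10.87, 11.10, 10.96, 10.88 and 10.85 on day 60, against 10.90 ± 0.14 on day 0 (SD, n = 5), so both days were tight and far apart. Rgs5, a G protein regulator that marks pericytes, read 105176, 102583, 117172, 101048 and 137287 on day 20 and 26699, 51699, 23276, 20063 and 14712 on day 60. It fell by 2.17 on the log2 scale (SE 0.26, adjusted p = 8.71e-06), and day 60 B stood above its group. Pdgfrb, the receptor for PDGF-B, fell by 2.37 and the proteoglycan Cspg4 (NG2) by 1.31. The channel genes Kcnj8 and Abcc9, which form the vascular KATP channel, fell by 2.35 and 1.13. Gucy1a1 and Gucy1b1, the subunits of the nitric oxide receptor, fell by 2.38 and 2.41. For Gucy1b1 the day 60 signals of 529.6, 1441, 1158, 956 and 1109.9 lay under the day 20 range of 5099 to 6126. The 3 members not called were Cox4i2, Anpep and Des (-0.44, 0.17 and 0.60), of which Des is also a muscle filament.

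Contractile smooth muscle did not move as evenly. Among 14 genes 5 were lower, and the day 60 arrays differed widely. The list level was 11.50, 11.87, 12.28, 11.07 and 10.99 on day 60 A to E. Array C was thus above the day 20 levels of 12.07, 12.26, 12.02, 12.13 and 12.19. Arrays D and E were below all day 0 arrays, which lay between 11.19 and 11.46, and A was just above them. Acta2, smooth muscle actin, read 78749, 98277, 102007, 76688 and 91105 on day 20 and 38214, 82505, 89838, 26274 and 29112 on day 60. Arrays B and C lay inside the day 20 range and A, D and E below it. The Acta2 change was -0.93 (SE 0.27, adjusted p = 0.0185), and the call was lost without day 60 D or E (adjusted p up to 0.0607), and also in the fit of the 10 arrays alone, with the Actb ratio as a covariate and without day 60 A, B and D (up to 0.0981). Mylk, myosin light chain kinase, was lower in all 5 day 60 arrays (-1.54, adjusted p = 3.17e-05). Actg2, Tagln and Kcnmb1 were also called (-1.66, -1.13 and -0.89), and Myh11 was not (-1.09, adjusted p = 0.0541). The Actg2 call was lost without day 60 A, B and D (adjusted p = 0.0905). The count of 5 was 8 without day 60 C and 3 without day 60 D or without day 60 E. It was also 3 with the Actb ratio as a covariate and 1 without day 60 A, B and D.

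**Figure D2:**
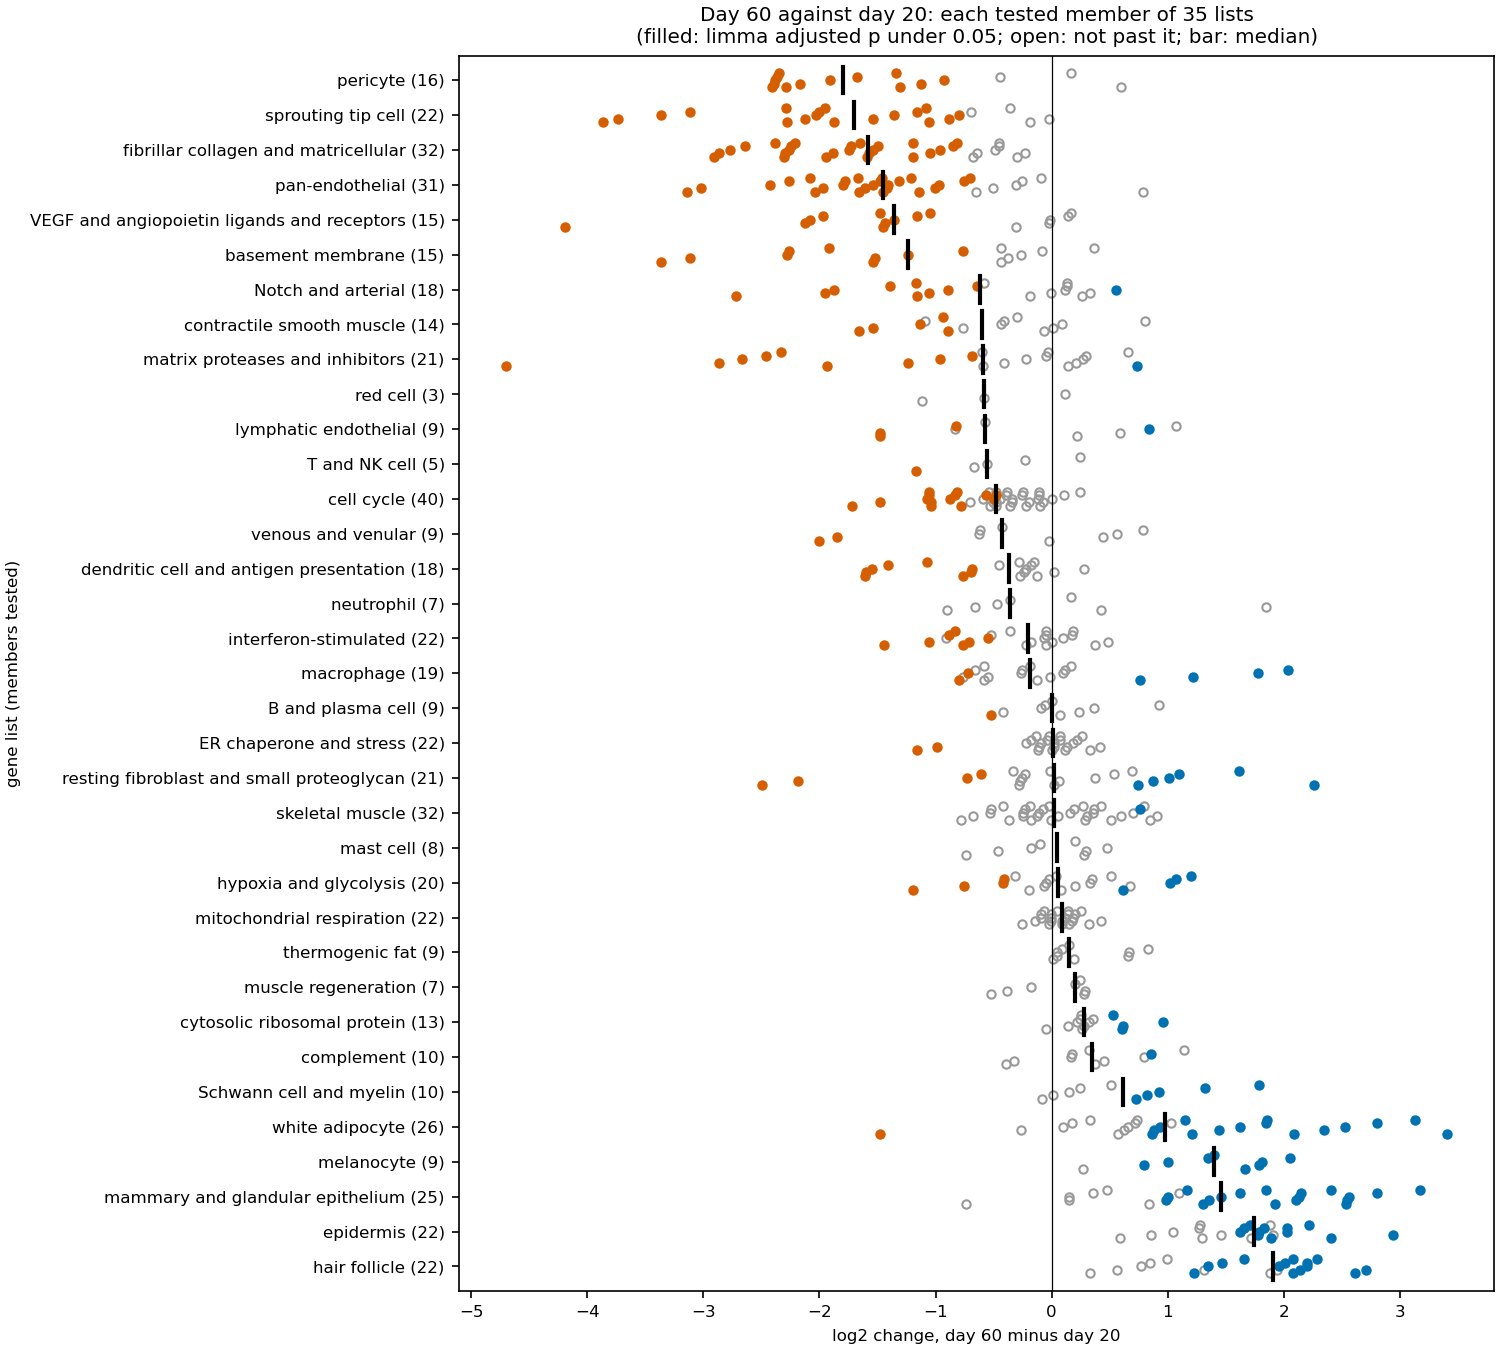
Log2 change of signal + 100 between day 20 and day 60 for each tested member of the gene lists, with 1 point per gene, filled where limma's adjusted p was under 0.05 (orange lower, blue higher) and open elsewhere, and a bar at the list median. Endothelial, pericyte and matrix medians sit below 0 and epithelial, melanocyte and fat medians above it, while skeletal muscle, mitochondrial and mast cell medians are near 0 with all arrays included.

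Interstitial matrix genes fell with the vessels. Of 32 genes of fibrillar and associated collagens and matricellular proteins, 25 were lower and none higher, with a median of -1.58. Col1a1, the main chain of type I collagen, read 34673, 69381, 62820.2, 53308 and 26417 on day 20 and 17713, 24234, 6894, 9784 and 10274 on day 60. The groups were apart, with day 20 E the lowest of its group and day 60 B the highest of its own (log2 change -1.89, SE 0.29, adjusted p = 0.000116). Postn, periostin of activated fibroblasts, read 73838, 112884, 120032, 81866 and 81850.2 and then 13068, 51725, 12676, 15104 and 21183 (log2 change -2.24, adjusted p = 4.31e-05). Timp1, an inhibitor of metalloproteinases, went from 6468 ± 3552 to 760.1 ± 405 (-2.87). The log2 changes of Sparc, Tnc, Lox and Thbs1 were -2.26, -1.54, -1.50 and -2.21, all called. Col1a2 and Col3a1, further chains of the major fibrils, fell by 0.85 and 0.81. Fibronectin (Fn1), versican (Vcan) and Fap had log2 changes of -0.67, -0.49 and -0.46 and were not called.

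Mgp, matrix Gla protein, an inhibitor of calcification and of BMP signalling, kept part of its rise. It read 1880.0, 2579, 1360.0, 1782 and 1836 on day 0, 48016, 54819, 60942, 47981 and 63263 on day 20 and 10840.5, 17084, 12398, 1789 and 4602 on day 60. Day 60 D lay inside the day 0 range and the other 4 arrays above it. It was lower than on day 20 by 2.90 (SE 0.41, adjusted p = 4.83e-05) and higher than on day 0 by 1.91 (adjusted p = 0.0326), the only member of the matrix list called against day 0.

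Basement membrane genes gave 9 falls and no rise among 15, with a median of -1.24. Nid2 and Col4a2, described above, fell furthest, followed among the chains by Col4a1, and Lama4 and Lamb1 fell too. The log2 changes of Col4a1, Lama4 and Lamb1 were -2.28, -1.91 and -1.52. Lama3, Lama5 and Col4a5 had log2 changes of -0.43, -0.08 and 0.36, none called. The level of this list was 13.14, 13.21, 13.25, 13.14 and 13.27 on day 20 and 12.02, 12.05, 11.62, 11.79 and 12.13 on day 60, with day 0 at 11.95 ± 0.11 (SD, n = 5). Day 60 levels thus lay on both sides of the day 0 mean.

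Matrix proteases held the largest fall among the named genes that were called and whose days did not overlap. Mmp13, a collagenase of remodelling tissue, read 8471, 13853, 35795, 13168 and 6305 on day 20 and 1849, 645, 107, 365 and 123 on day 60. Every day 60 array was below every day 20 array, though A, B and D stayed above the highest day 0 array at 196. Mmp13 fell by 4.70 on the log2 scale (SE 0.57, adjusted p = 8.71e-06), and the difference from day 0 was 1.38 and not called (adjusted p = 0.237). Of 21 proteases and inhibitors, 9 were lower and 1 higher. Adamts4, Adamts12 and Adamts9, proteases of proteoglycans, fell by 2.67, 2.33 and 1.93, and macrophage elastase Mmp12 by 2.46. Mmp2 and Mmp9, the gelatinases, had log2 changes of 0.27 and 0.14 and were not called. Timp2 was called higher (0.73, adjusted p = 0.0307), with 3 of 5 day 60 arrays above day 20. The Timp2 call was lost without any one of day 20 A, D or E or day 60 A, D or E (adjusted p up to 0.0889), and also in the fit of the 10 arrays alone, with the Actb ratio as a covariate and without day 60 A, B and D (up to 0.227).

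Resident fibroblast genes went both ways. Of 21 genes of resting fibroblasts and small proteoglycans, 6 were higher and 4 lower, with a median of 0.02. Pi16, a marker of adventitial and reticular fibroblasts, read 2227, 1893, 1766, 3145 and 3945 on day 20 and 28955, 3970.2, 7227, 17912 and 18259 on day 60, with A, D and E far above B and C. It rose by 2.26 (SE 0.43, adjusted p = 0.000918), and all day 60 arrays lay above all day 20 arrays, as in 7.03% of all genes. Dpp4, found on the same fibroblasts, rose by 1.62, and Fbln1, Sfrp4, Gsn and Dcn (decorin) by 1.10, 1.01, 0.87 and 0.75. Aspn and Fmod, proteoglycans related to decorin, fell by 2.18 and 2.50. Aspn read 36228, 44002, 37607, 37134 and 33562 and then 9276, 8606, 7278, 5788 and 10889, so the groups were far apart (adjusted p = 5.78e-07). Fmod overlapped, since day 60 B held 5188 units and the other 4 arrays at most 1569. The elastic fibre genes Eln and Fbln5 fell by 0.61 and 0.73.

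Proliferation genes fell in part. Of 40 cell cycle genes, 14 were lower and none higher, and the median was -0.48. Nuf2, a kinetochore protein, read 2128, 2291, 2042, 1914 and 2718 on day 20 and 438, 762, 430.2, 978 and 530.3 on day 60, which did not overlap (log2 change -1.72, SE 0.35, adjusted p = 0.00142). Kif20a, a mitotic kinesin, had the next largest fall (-1.47, adjusted p = 0.000606). Cdk1, Ccnb2 and Mcm2, for mitotic entry and DNA replication, fell by 0.83, 1.04 and 0.78. Mki67, the common proliferation marker, read 6748, 7190.0, 8712, 7141 and 9187 and then 5948, 8772, 6318, 7117 and 8025, overlapping groups with a log2 change of -0.11 (SE 0.22, adjusted p = 0.767). Against day 0, 4 of the 40 were called higher on day 60, where the background is 0.368%: Top2a, Prc1, Cenpf and Birc5, at 1.0, 0.92, 0.87 and 0.67. The list median against day 0 was 0.62, and 27 of the 40 had an unadjusted limma p under 0.05, a count without an all-gene share beside it. List levels of day 60 and day 0 overlapped. With the Actb ratio as a covariate 5 members were called lower than on day 20, with a list median of -0.34, and without day 60 A, B and D 7 were, with a median of -0.54.

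Cell cycle promoters often carry CCAAT boxes, bound by NF-Y, and CHR elements. In the 250 bases before the start, on both strands, CCAAT was in 28 of 37 promoters of the 35 tested cell cycle genes with a RefSeq entry (75.7%), in 9 of 14 of the genes called lower (64.3%) and in 33.8% of all promoters. The CHR letters TTTGAA were in 27.0%, 42.9% and 16% of the same. The promoter of Ccnb2, cyclin B2, on the minus strand at chr9:70421555-70421804 of GRCm38.p6, is shown as one that holds several boxes, with CCAAT in capitals.
Ccnb2: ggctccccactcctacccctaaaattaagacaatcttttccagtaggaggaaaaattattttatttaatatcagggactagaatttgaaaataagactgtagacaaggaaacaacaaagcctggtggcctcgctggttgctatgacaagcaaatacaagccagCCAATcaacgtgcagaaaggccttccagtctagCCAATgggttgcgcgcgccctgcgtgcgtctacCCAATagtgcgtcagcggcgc

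Macrophage genes went both ways, with 4 rises and 2 falls among 19 and a median of -0.19. Over all genes 11% rose and 11.2% fell. Cd163, a scavenger receptor of resident macrophages, read 1703, 2163, 1349.8, 2283 and 2255 on day 20 and 10598, 3764, 2455, 12110.5 and 29571 on day 60, with A, D and E far above B and C (log2 change 2.03, SE 0.50, adjusted p = 0.00636). The Cd163 call was lost without day 60 A, B and D (adjusted p = 0.0506). Timd4 and Folr2, also of resident macrophages, rose by 1.22 and 0.76. Gpnmb, made by macrophages and by pigment cells, rose by 1.77. Adgre1 (F4/80) and Ctss were called lower, at -0.72 and -0.80 (adjusted p = 0.0204 and 0.03), with overlapping arrays. Both calls were lost without day 20 B, day 20 C or day 60 C. Adgre1's was also lost without day 20 D, and that of Ctss without day 60 D (adjusted p up to 0.0629 and 0.0949). With the Actb ratio as a covariate, in the fit of the 10 arrays alone and without day 60 A, B and D neither was called (up to 0.126 and 0.175), nor was Ctss after quantile normalization. Csf1r, Cd68 and C1qa had log2 changes of -0.19, -0.26 and -0.02 and were not called.

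Antigen presentation genes fell in part, with 8 lower of 18 and none higher. H2-Eb1, a class II chain, read 12628, 24166, 16934, 15031 and 13061 on day 20 and 8705, 6275, 1880.3, 3763 and 9140.0 on day 60 (log2 change -1.61, adjusted p = 0.00137), and C was lowest. The invariant chain Cd74 fell by 1.60, Itgax (CD11c) by 1.55 and B2m, the light chain of class I, by 0.69. Of 22 interferon-stimulated genes 7 were lower, among them the GTPase Gbp3 (-1.45, adjusted p = 0.000153) and the antiviral enzyme Rsad2 (-1.06, adjusted p = 0.0104), whose call was lost in the fit of the 10 arrays alone (adjusted p = 0.0522). The interferon list levels on day 60 A to E were 11.12, 10.15, 10.14, 11.15 and 11.12, against 10.88, 11.21, 10.93, 11.30 and 11.02 on day 20, so B and C were low and A, D and E within the day 20 span. Only 4 interferon genes were called in a fit of the 10 arrays or without day 60 A, B and D. None of 7 neutrophil genes and 8 mast cell genes was called by limma at the adjusted threshold, and their medians were -0.36 and 0.05. At an unadjusted p under 0.05, 2 of each passed, beside 34.6% of all genes. T and NK cell genes were barely measured, since 5 of 18 reached the minimum signal, and of these only Gzma was called (-1.17). Of 9 B and plasma cell genes only Cd22 was called (-0.52), a call lost without day 20 B, day 60 B or day 60 D (adjusted p up to 0.0742). Of 10 complement genes 1 was called, the receptor C5ar1 (0.86). Its call was lost without day 20 A or day 60 A, D or E (adjusted p up to 0.0719) and in the fit of the 10 arrays alone. Beside the T and NK cell, B and plasma cell and complement counts, 22.1% of all genes were called in either direction. Neither Cd22 nor C5ar1 was called with the Actb ratio as a covariate or without day 60 A, B and D (adjusted p up to 0.373 and 0.262).

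Many white fat genes rose towards the day 0 level. Of 26 adipocyte genes, 15 were higher on day 60, 1 was lower, and the median was 0.98. Against day 0, side by side, 24 were called lower on day 20 (median -2.12) and 5 on day 60 (median -1.35). Over all genes 14.5% and 0.765% were lower. At an unadjusted limma p under 0.05, 23 of the 26 differed from day 0 on day 60. The list level was 11.22, 10.79, 10.88, 11.11 and 11.08 log2 units on day 20 A to E and 11.39, 12.98, 12.11, 12.83 and 11.79 on day 60. B and D were highest and A was next to the day 20 arrays. Thrsp, a regulator of fat synthesis, read 1225, 501, 91, 1678 and 817 on day 20 and 2662, 28501, 6499.9, 14464 and 4242 on day 60 and rose by 3.40 (SE 0.71, adjusted p = 0.00173). Scd1, the stearoyl-CoA desaturase, read 9058, 3167, 7560.2, 7457 and 4618 and then 21403, 102264, 34302, 69804 and 25254 (log2 change 2.80, SE 0.38, adjusted p = 3.25e-05). Both genes were apart between the days, as the choice of the largest rises requires, and B and D were highest on day 60. Adipoq, adiponectin, read 1387, 1178, 519.9, 1509 and 1514 and 633, 38909.8, 9055, 17640.5 and 4094. Array A of day 60 lay inside the day 20 range and the other 4 above it, and the log2 change was 2.53 (SE 0.69, adjusted p = 0.0117). It ranged from 1.92 to 3.35 with single arrays left out, lowest without day 60 B and highest without day 60 A, and was not called in a fit of the 10 arrays (adjusted p = 0.0578). The lipase Ces1d, the adipokines Retn and Lep, the lipid droplet protein Cidec and the fatty acid synthase Fasn rose by 3.13, 2.34, 1.63, 1.85 and 2.09. The count of 15 was 8 with the Actb ratio as a covariate and 7 without day 60 A, B and D.

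Pparg, the master regulator of fat cells, went against its list. Signals were 1417, 1006, 696, 666 and 1597 on day 0, 1019, 1335, 801, 968 and 1347 on day 20 and 210.1, 474, 259, 491 and 248 on day 60. All 5 day 60 arrays lay below all arrays of both other days, a condition of 1 rule that named this gene. The log2 change was -1.48 from day 20 (SE 0.24, adjusted p = 0.000202) and -1.41 from day 0 (adjusted p = 0.0111). The fat genes Fabp4, Lpl and Car3 were not called from day 20 (-0.26, 0.17 and 0.33). None of 9 thermogenic fat genes was called from day 20 by limma (1 had an unadjusted p under 0.05), with a median of 0.15. Against day 0 none was called on day 60 either (4 had an unadjusted p under 0.05), with a median of -0.90. The list levels of day 60, from 9.50 to 10.39, lay below all day 0 arrays, from 10.47 to 12.67. Ucp1, the uncoupling protein of brown fat, read 43788, 516, 1720.5, 723 and 59.9 on day 0, 176, 25.8, 55.8, 49.1 and 30.6 on day 20 and 25.5, 302, 41.3, 104 and 42.6 on day 60. Day 0 A stood far above the other day 0 arrays, and the differences were not called (adjusted p = 0.91 from day 20 and 0.107 from day 0). In 17 adipocyte genes with a RefSeq promoter the letters TCACNCCAC of a sterol response element were not found in the 250 bases before the start, where 1.05% of all promoters hold them. That says only that these letters are not in this window.

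Glandular epithelial genes rose as a group. Of 25 genes of mammary and glandular epithelium, 18 were higher, none was lower, and the median was 1.46. The list level was 9.48, 8.95, 9.48, 9.32 and 8.93 on day 20 A to E and 9.86, 11.52, 10.50, 11.36 and 10.40 on day 60, all above day 20 and all below the day 0 mean of 11.70 ± 0.10 (SD, n = 5). Foxa1, a pioneer factor of luminal epithelium, read 7651, 6963, 4982, 6560.1 and 10916 on day 0, 92.2, 46.6, 28.3, 23.8 and 92.7 on day 20 and 197, 5384, 749.8, 3355 and 984 on day 60. Its rise was 3.18 (SE 0.54, adjusted p = 0.000333), and it stayed below day 0 by 2.39 (adjusted p = 0.0394), with A nearest to day 20 and B nearest to day 0. Krt18, a keratin of simple epithelia, read 244, 138, 217, 264 and 238 and then 194, 8073, 1727, 7055 and 1604, with A inside the day 20 range. It rose by 2.81 (adjusted p = 0.00161), or by 2.34 to 3.54 with single arrays left out, lowest without day 60 B and highest without day 60 A. Pgr, the progesterone receptor, and Gata3 and Tfap2c, factors of luminal and skin epithelium, rose by 2.54, 2.11 and 2.56, and Epcam and Cdh1 by 2.15 and 1.85. The milk protein genes Csn2, Wap and Lalba had log2 changes of 0.15, 0.35 and -0.73 and were not called, while Csn3 was (1.46, adjusted p = 0.0486). Aqp5, Clca3a2, Prom1 and Wfdc18, beside Foxa1, were the 5 members still called below day 0, at -1.93, -3.19, -1.62 and -1.71. At an unadjusted limma p under 0.05, 15 of the 25 differed from day 0.

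Epidermal and hair follicle genes rose in part. Of 22 epidermal genes 12 were higher and none lower (median 1.75), and of 22 hair follicle genes 14 and none (median 1.91). Neither list had a member called by limma on day 60 against day 0, and 0 and 2 had an unadjusted p under 0.05. The day 20 arrays differed strongly among themselves. Epidermal levels were 11.50, 9.57, 12.63, 10.86 and 9.08 log2 units on day 20 A to E, with B and E low and C high, and 11.49, 12.80, 13.02, 12.69 and 12.11 on day 60, so A and C of day 20 lay within the day 60 span. Hair follicle levels were 12.47, 10.37, 12.83, 12.21 and 10.12 and 12.85, 13.96, 13.63, 12.99 and 12.88. Pkp1, a desmosome protein, read 3097, 382, 7106, 3202 and 232 on day 20 and 11474, 18134, 13314, 10609 and 10773 on day 60 (log2 change 2.95, SE 0.62, adjusted p = 0.00204). Trp63, the master factor of stratified epithelium, rose by 2.22 and the basal keratin Krt5 by 1.62. Krt14, the partner of Krt5, read 3454, 606, 7336, 1872 and 266 and then 4058, 5564, 9835, 5644 and 3697, overlapping groups with a log2 change of 1.71 (SE 0.60, adjusted p = 0.0452). Its call was lost under 19 of 32 alternatives. Among them was the omission of day 0 A, C or D, of any day 5 array, of day 20 B, D or E, or of day 60 A, B, C or D (adjusted p up to 0.129). Keratins of the upper epidermis, Krt1 and Krt10, and the barrier proteins Lor and Flg had log2 changes of 1.72, 1.27, 1.28 and 1.88, none called.

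Hair genes called higher included the inner root sheath keratin Krt73, which read 9260.2, 1704, 13491, 9909 and 1492 on day 20 and 19247, 61389, 49579, 27932 and 26340.3 on day 60 (log2 change 2.71, SE 0.52, adjusted p = 0.000954). Padi3, a deiminase of hair proteins, rose by 2.61. The follicle transcription factors Hoxc13, Dlx3, Foxn1, Lef1 and Msx2 rose by 2.29, 2.08, 2.08, 1.46 and 1.35, and Dlx3 with an adjusted p of 4.19e-06. The hair shaft keratins Krt31, Krt34 and Krt86 were not called (1.94, 1.0 and 0.77). Without day 60 A, B and D, 5 epidermal and 6 hair follicle genes were called, from 2 day 60 arrays. Of the largest rises outside the lists, Esrp1, a splicing regulator of epithelia, and St14, the epithelial protease matriptase, rose by 2.78 and 2.65. Adamts20, a protease whose loss gives the belted coat pattern, rose by 2.84 (adjusted p = 5.75e-06), and Inmt, a methyltransferase, by 3.05 (adjusted p = 8.89e-06).

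**Figure D3:**
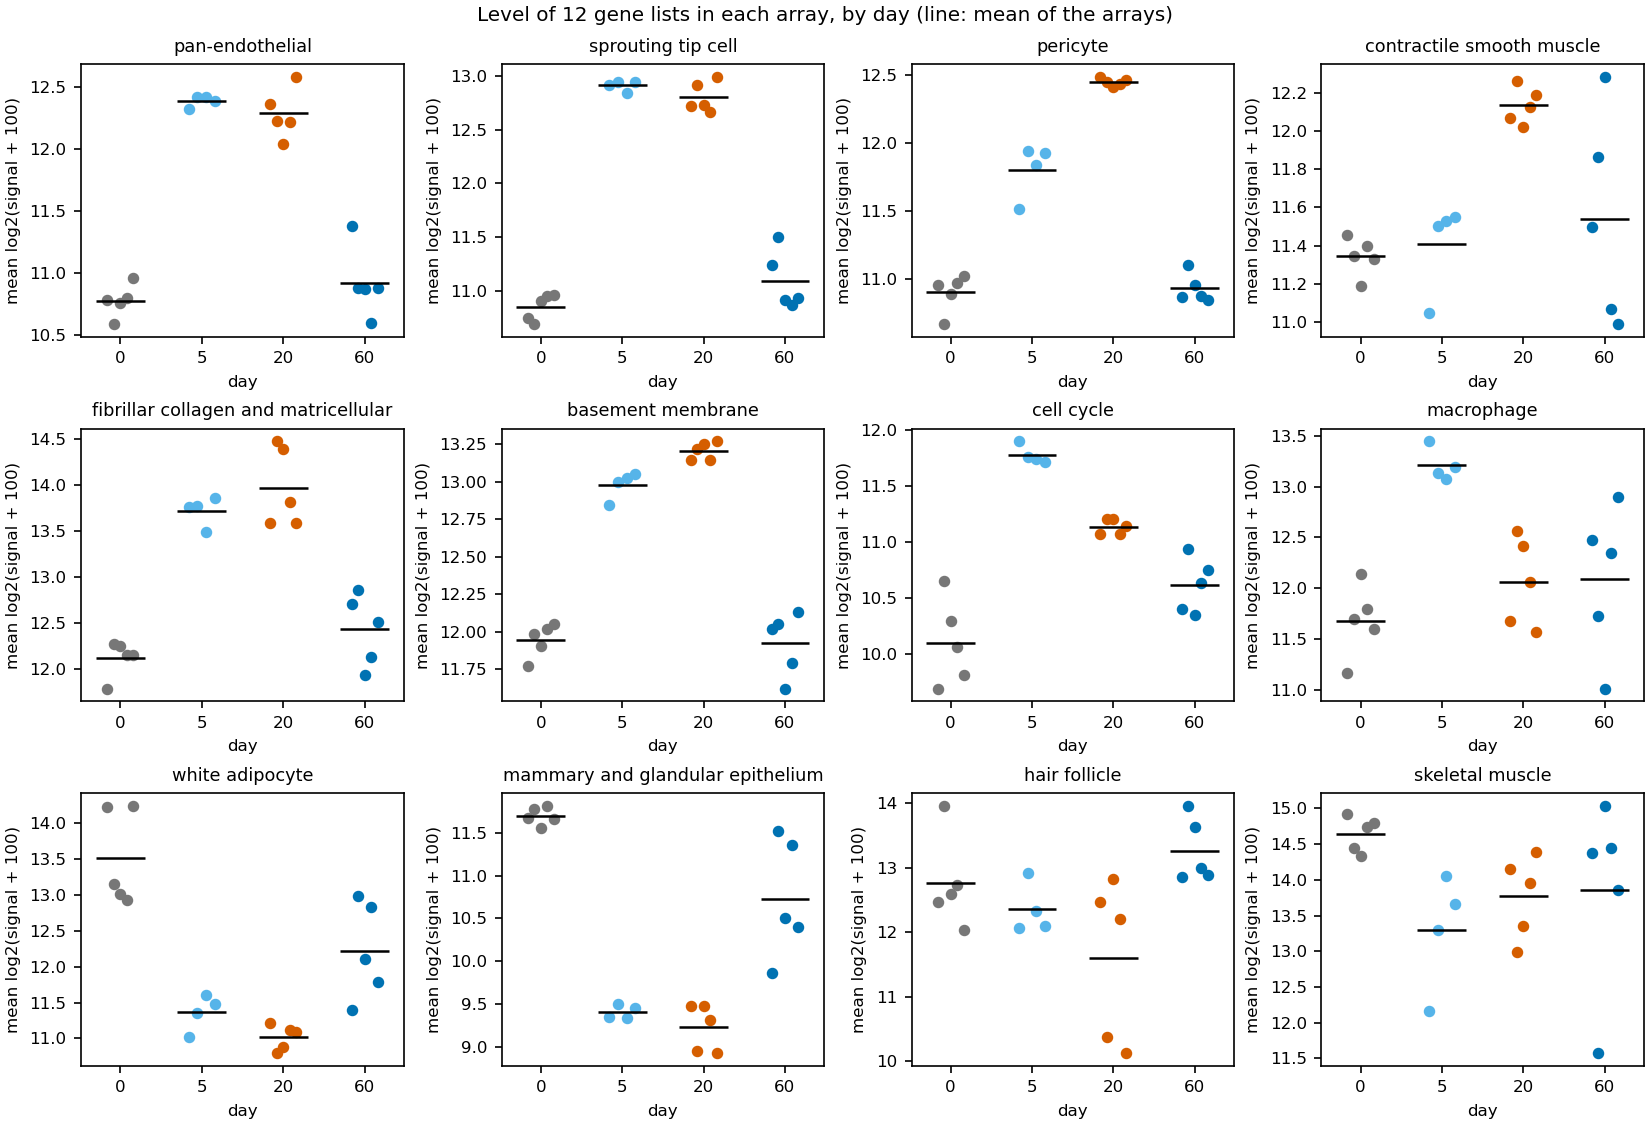
Mean log2(signal + 100) of the tested members of 12 lists by day (day 0, 5 arrays, day 5, 4 arrays, day 20 and day 60, 5 arrays each), with 1 point per array and a line at the mean of the arrays. Endothelial and pericyte levels of day 60 overlap day 0 and lie below all day 20 arrays, glandular levels of day 60 lie between day 20 and day 0, and smooth muscle and skeletal muscle levels of day 60 are spread widely.

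Melanocyte genes were nearly all higher. Of 9 members, 8 rose and none fell, with a median of 1.40. Tyr, tyrosinase, the enzyme that starts melanin synthesis, read 707, 901, 1166, 763 and 722 on day 0, 662, 386, 1056, 482 and 411 on day 20 and 1780.2, 3542, 1738, 2130.1 and 2155 on day 60. All day 60 arrays lay above those of both other days, as the rule that named Tyr requires. Its log2 change was 1.79 from day 20 (SE 0.25, adjusted p = 3.88e-05) and 1.29 from day 0 (adjusted p = 0.019). Tyrp1 and Dct, the later enzymes of the pathway, read 7265, 20475, 13185, 11259.5 and 11706 and 7287, 18214, 10188, 9486 and 8831 on day 60, and no day 20 array exceeded 7058 for Tyrp1 or 5677 for Dct. They rose by 2.05 and 1.82 (adjusted p = 0.00236 and 0.000405). Mitf, the master factor of the lineage, rose by 0.80, and the melanosome genes Mlana, Pmel, Gpr143 and Oca2 by 1.66, 1.40, 1.34 and 1.0. Slc45a2, a melanosome transporter, was not called (0.27). Tyr was the only member called against day 0, and 7 of the 9 had an unadjusted limma p under 0.05. Melanocyte levels in the arrays were 10.81, 9.72, 11.12, 10.42 and 9.92 on day 20 and 11.36, 12.42, 11.53, 11.65 and 11.76 on day 60, with day 20 C highest and B and E low, as for hair follicle genes.

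MITF binds the M-box of pigment gene promoters. The letters TCATGTG, on either strand, were in the 250 bases before the start of Tyr, Tyrp1 and Dct, that is in 3 of 7 promoters of the 5 melanocyte genes with a RefSeq entry, and in 3.25% of all promoters. These are shown because the enzymes they precede had the largest rises of the list, with the M-box in capitals, in GRCm38.p6. Tyr lies on the minus strand at chr7:87493513-87493762, Tyrp1 on the plus strand at chr4:80833963-80834212 and Dct on the minus strand at chr14:118052247-118052496.
Tyr: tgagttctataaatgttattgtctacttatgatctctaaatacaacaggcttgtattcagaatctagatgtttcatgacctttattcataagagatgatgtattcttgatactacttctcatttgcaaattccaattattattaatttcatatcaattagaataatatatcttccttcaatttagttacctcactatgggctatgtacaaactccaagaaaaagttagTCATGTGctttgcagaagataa
Tyrp1: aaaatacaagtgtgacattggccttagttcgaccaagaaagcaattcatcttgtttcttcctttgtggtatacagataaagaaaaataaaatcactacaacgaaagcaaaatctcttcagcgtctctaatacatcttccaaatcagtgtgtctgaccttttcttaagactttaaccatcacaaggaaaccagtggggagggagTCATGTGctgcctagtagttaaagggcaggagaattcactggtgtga
Dct: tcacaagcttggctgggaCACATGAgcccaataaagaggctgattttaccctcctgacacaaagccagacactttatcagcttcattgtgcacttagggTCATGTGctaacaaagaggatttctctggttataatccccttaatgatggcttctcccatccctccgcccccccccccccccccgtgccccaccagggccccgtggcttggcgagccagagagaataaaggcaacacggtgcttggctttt

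Schwann cell genes rose in part, with 5 higher of 10 and none lower. Mbp, a myelin protein, read 35906, 8295, 17269, 11319.7 and 11469.6 on day 20 and 65616, 48772, 72827, 35415 and 40437 on day 60, with day 20 A as the 1 overlapping array (log2 change 1.79, SE 0.29, adjusted p = 0.000196). Ncmap, of peripheral myelin, read 841, 515, 722, 412 and 656 and then 1670.5, 1560.5, 2244, 1377 and 1639, without overlap (log2 change 1.32, adjusted p = 4.4e-05). Pmp22, Drp2 and S100b rose by 0.72, 0.82 and 0.92. The lineage factors Sox10 and Egr2 had log2 changes of -0.08 and 0.24 and were not called.

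Skeletal muscle genes were not shown to differ between day 20 and day 60. Of 32 tested, 1 was higher (Mylk2, at 0.76), none was lower, and the median was 0.02. That median was 0.66 without day 60 B and -0.19 without day 60 C, and between -0.10 and 0.17 without any other array. Against day 0 the medians were -0.82 on day 20 and -0.83 on day 60. On day 20 limma called 6 members lower and 1 higher than on day 0, where 14.5% and 15.6% of all genes were. On day 60 it called none. Acta1, skeletal actin, read 110012, 59094, 77556, 89006 and 114258 on day 20 and 90875, 16399, 176501, 95255 and 86618 on day 60 (log2 change -0.25, SE 0.42, adjusted p = 0.728). Day 60 B was the lowest of all and day 60 C the highest. The same pair stood apart for the whole list, whose levels were 14.38, 11.57, 15.04, 14.45 and 13.86 on day 60 and 14.16, 12.99, 13.36, 13.96 and 14.39 on day 20. The Mylk2 call was lost without day 20 B, C or D or day 60 A, C or D (adjusted p up to 0.0977), and also with the Actb ratio as a covariate and without day 60 A, B and D (up to 0.21). None of 7 muscle regeneration genes was called by limma (1 had an unadjusted p under 0.05), and Myog and Myod1 had log2 changes of 0.20 and 0.28. None of 22 mitochondrial respiration genes was called by limma (0 had an unadjusted p under 0.05, median 0.09), and their levels were lowest in day 60 B and highest in day 60 C as well.

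**Figure D4:**
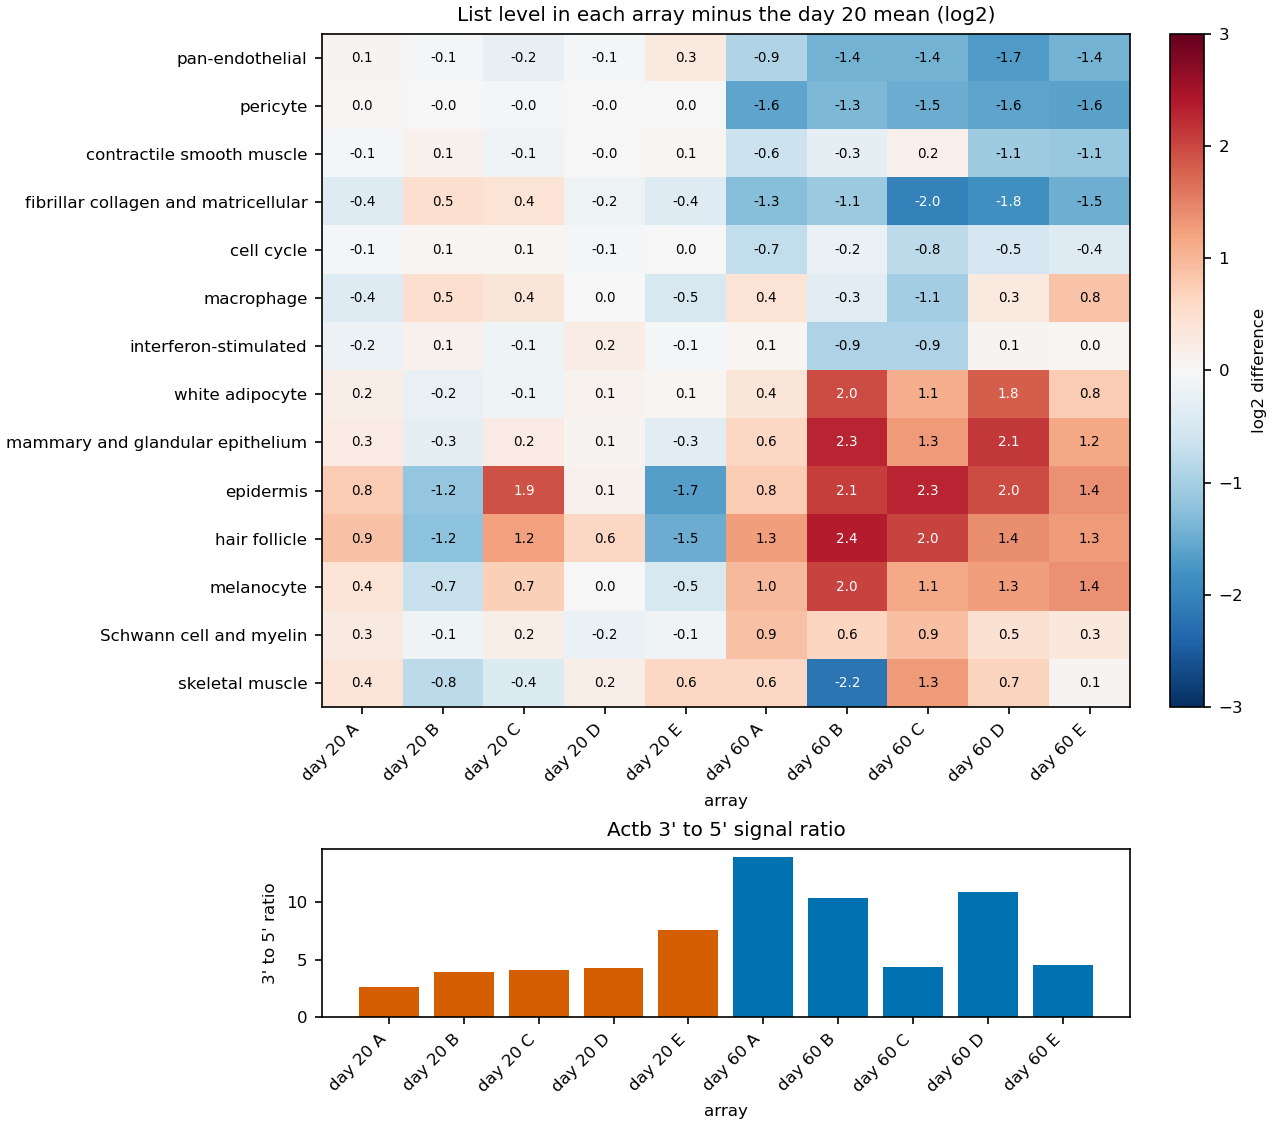
Level of each list in the 10 arrays of day 20 and day 60 as the difference from the day 20 mean of that list, in log2 units, with lists from top to bottom and arrays from left to right, above bars of the Actb 3' to 5' signal ratio of the same arrays. Day 60 B and D are high in fat and glandular lists, day 60 B is low in skeletal muscle, and day 20 B and E are low in epidermis and hair follicle.

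The day 60 arrays differed from each other in their list levels. Relative to the day 20 mean of each list, glandular levels were higher by 0.63, 2.29, 1.27, 2.13 and 1.17 log2 units in day 60 A to E, and fat levels by 0.37, 1.97, 1.09, 1.81 and 0.77. Array B, with the highest of both, had the lowest skeletal muscle level, at 11.6 against 13.9 to 15.0 in the others. Array A, with the lowest fat and gland levels, had the highest Actb ratio, and B and D, with the highest levels, had the next highest. The part of tissue taken and RNA integrity in these differences was not tested.

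Few genes separated day 60 from day 0. Of 13594 genes, 50 were higher (0.368%) and 104 lower (0.765%), with 12 (0.0883%) and 63 (0.463%) of them changed at least 2-fold. Single arrays moved these counts, to between 4 and 326 higher and between 17 and 267 lower. Without day 0 B they were 326 and 267, without day 60 C 188 and 177, and without day 0 E 5 and 17. Whether each named gene kept its call against day 0 in these fits was not examined. The count of higher genes moved by over 1.5 times without any one array other than day 5 B and day 20 C, and that of lower genes also without day 0 A, C or D, day 5 E or day 60 A or E. Among genes past both tests whose day 60 arrays were apart from both other days, Tyr, Zfp692 and Usp39 had the largest smaller-of-both rises, and Ano1, Igll1 and Pparg the largest such falls. Zfp692, a zinc finger gene, read 2703, 3062, 2565, 2779 and 2492 on day 60, above the day 20 range of 1240.2 to 1929 and the day 0 range of 1391 to 1863. Usp39, a splicing factor, rose by 0.55 from day 20 and 0.52 from day 0 (adjusted p = 0.0025 and 0.0416), and its call from day 20 was lost without day 60 A, B and D. Ano1, a calcium-activated chloride channel of smooth muscle and glands, read 7741, 6282, 5115, 5893 and 7646 on day 0, 12854, 10219.8, 9731, 12683 and 16764 on day 20 and 1716, 4901, 2000.0, 3251 and 1150.2 on day 60. It fell by 2.36 from day 20 and was lower than on day 0 by 1.45 on the log2 scale (adjusted p = 6.87e-06 and 0.019). Igll1, a surrogate light chain of B cell precursors, was lower by 1.48 and 1.43 (adjusted p = 0.00395 and 0.0481).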

How the data were processed

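Expression in mouse flank was measured with Affymetrix Mouse Genome 430 2.0 arrays, and the deposited table holds 45101 probe sets. Its values are intensity on a linear scale (MAS5 signals), which the authors computed in MAS 5.0 and GCOS 1.3 with a scaling factor of 1500, per the labels' protocols. Median signals were 452 to 465 on day 20 and 445 to 504 on day 60, and no pair of arrays held identical values. Scaling to a common mean makes signals shares of the RNA, not amounts per tissue.

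Of the probe sets, 34945 had 1 symbol, and 34741 of these matched current gene names. For each of 18193 genes the probe set of highest average signal in the 19 assigned arrays was kept, and the 13594 averaging at least 300 were tested. R 4.3.3 and limma 3.58.1 (lmFit, eBayes with a trend) fitted group means of log2(signal + 100) in all 19 arrays, with two-sided tests, Benjamini-Hochberg adjustment and a threshold of 0.05. The fit was tested on simulated data.

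The 35 lists hold 679 genes, of which 59 had no probe set of their own, 46 were under the minimum and 574 were tested. Some genes are in more than 1 list, so the lists are not separate from each other. The comparison, lists and rules were chosen with earlier results of these data known, so no list is independent evidence of its direction, and lists are described by counts and medians with no test. Named genes were Vegfa, Kdr, Flt1 and Pgf, the 10 largest falls and rises among called genes whose days did not overlap, the 2 largest called rises and falls of each list, the 3 genes furthest beyond both other days each way, and defining markers. Unnamed gene models were passed over in the largest changes and in the genes furthest beyond both other days. Other list members were named after their values were seen. Promoters are from RefSeq (GRCm38.p6). Alternatives were other pseudocounts, minimum signals, normalizations, probe set choices and limma settings (array weights with statmod 1.5.0), the replicate letter as a block, the Actb ratio as a covariate, and arrays left out. Probe set positions were not analysed here.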

Additional observations from a re-analysis of the deposited data

Results flagged for a closer look

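In 250 groups of 5 arrays (named genes and list levels, day 20 and day 60), 6 held an array far from the other 4. Chance flags about 1 in 20 groups, or 12.5 of 250. Sfn, an epidermal stress protein, read 742 in day 20 C and 17.2 to 67.2 in the other day 20 arrays. Adipoq read 519.9 in day 20 C and 1178 to 1514 in the others. Ucp1 read 176 in day 20 A and 25.8 to 55.8 in the others. The VEGF and angiopoietin list had a level of 11.78 log2 units in day 20 C and 12.01 to 12.10 in the others. Kcne3 read 410.3 in day 60 B and 153 to 207 in the others. The antigen presentation list had a level of 10.77 in day 60 C and 11.27 to 11.46 in the others. Day 20 C thus accounts for 3 of the 6.

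The array in no comparison, titled day 5 but with a source name of the day 0 control, had a Vegfa signal of 11111.1, where the highest day 0 array read 467 and the day 5 arrays 3927 to 9410.0.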

How the results depend on the processing

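Of 90 named genes, 87 were called between day 20 and day 60. Of these, 67 kept that call under every one of the 31 or 32 alternatives run on them, 19 of these alternatives single omissions. No called result between day 20 and day 60 changed direction. Calls of single genes against day 0 were not followed through the alternatives. Without day 60 A, B and D, which leaves 2 day 60 arrays, 617 genes were higher on day 60 than on day 20, 341 of them at least 2-fold, and 10 were higher than on day 0. In that fit 1034 genes were lower than on day 20, so 37.4% of called genes were higher, beside 49.5% in the main fit. That setting left 1 contractile smooth muscle, 7 cell cycle and 4 interferon genes lower, and 7 adipocyte, 5 epidermal and 6 hair follicle genes higher, and gave a red cell median of -1.48. With the Actb ratio as a covariate, 3 contractile smooth muscle and 5 cell cycle genes were lower and 8 adipocyte genes higher. A fit of the 10 arrays alone called 3 contractile smooth muscle and 4 interferon genes lower. All probe sets gave 2285 lower. A pseudocount of 500 gave 304 and 360 genes at least 2-fold higher and lower, and medians of -1.14 for endothelial, -0.89 for VEGF and angiopoietin, -1.26 for pericyte and -0.29 for T and NK cell genes. A pseudocount of 1 gave -2.22 for pericytes. Without a minimum signal the basement membrane median was -0.77, that of T and NK cells -0.23, and 28 genes were higher than on day 0. With a minimum of 1000, medians were -2.17 for pericyte, -0.23 for T and NK cell and -0.69 for antigen presentation genes, and 67 genes were lower than on day 0. Genes higher than on day 0 numbered 30 with 75th percentile centring, 147 with array weights and 32 with the replicate block. That block, the letter of the title, changed no call of a named gene between day 20 and day 60. The letters did not pair the arrays, since deviations of same-letter arrays of day 20 and day 60 correlated from -0.15 to 0.15, over 0.1 in 1 of 5 pairs. Leaving out single arrays gave 4 to 326 genes higher and 17 to 267 lower than on day 0, a pericyte median from -1.86 to -1.68, and 3 to 8 contractile smooth muscle genes lower. The cause of these shifts was not tested, apart from the fewer arrays or genes that a setting leaves. Of 5763 genes with several tested probe sets, 18 had probe sets called in both directions, Vegfa among them.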

Other observations

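Oxygen-regulated and glycolytic genes went both ways, with 4 of 20 higher on day 60 than on day 20 and 4 lower (median log2 change 0.06). The shares over all genes were 11% higher and 11.2% lower. Egln3 and Pdk1, targets of hypoxia-inducible factors, rose by 1.2 and 1.07 (adjusted p = 0.00229 and 0.00964), as did Bnip3 and Ndrg1 by 1.02 and 0.61. Egln3 read 3183, 3876, 7921, 5148 and 4129.9 on day 60 A to E, above all day 20 arrays, which lay between 1014 and 2784. Epas1, the hypoxia-inducible factor of endothelium, and Hif1a fell by 1.19 and 0.42, and the glycolytic enzymes Pfkp and Hk1 by 0.75 and 0.41. The Pdk1 call was lost with the Actb ratio as a covariate, and that of Pfkp without day 60 A, B and D.

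Of 22 genes of endoplasmic reticulum chaperones and stress, 2 were lower and none higher, where 11.2% and 11% of all genes were. The 2 were Pdia3, a disulfide isomerase, and Serpinh1, the collagen chaperone HSP47, at -1.16 and -0.99 (adjusted p = 0.00353 and 0.000924). The Pdia3 call was lost with the Actb ratio as a covariate and without day 60 A, B and D (adjusted p up to 0.0697). The general chaperones Hspa5 and Calr had log2 changes of 0.02 and 0.07. Hspa5 was higher on day 60 than on day 0 by 0.80, the only member called in that comparison. Of 13 cytosolic ribosomal protein genes 4 were higher, led by Rps6 at 0.96 (adjusted p = 7.82e-05), and Rpl37's call was lost without day 20 A or B. None of 3 red cell genes was called by limma, and 1 had an unadjusted p under 0.05.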
